A study of Mus musculus with 18 samples.

Results

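The comparison described here is that of cocaine with saline in the striatum of control mice, which made up 9 of the 18 arrays of a study of cocaine and the kinase CaMKIV. The samples were chosen by their titles: 3 control animals had received saline and 6 had received cocaine. Of the 6 cocaine animals, 3 carried Arabic numbers, as did all 3 saline animals, and 3 carried Roman numbers. The Arabic-numbered cocaine animals against the saline animals formed the main comparison of 3 against 3, and the Roman-numbered cocaine animals were set beside it. The other 9 arrays were of mutant animals and entered only the check of Camk4 and alternative fits.

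Each animal gave 1 array. The animals were littermates 10 to 20 weeks old, injected intraperitoneally with saline or with cocaine at 25 mg/kg and killed 1 h later, and the tissue was the striatum with the nucleus accumbens. The titles code the control animals as wt and call them control animals, and the labels state no strain, sex or Camk4 allele. Because whole tissue was measured, a change in RNA per cell and a change in the number of cells of a type cannot be told apart.

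Cocaine blocks the dopamine transporter, so dopamine stays longer at its receptors on the medium spiny neurons, the main cells of the striatum. Dopamine at D1 receptors, together with glutamate input, raises cyclic AMP and calcium in these cells and activates kinases that phosphorylate the transcription factors CREB and ELK1. These factors already sit in the cell, so the immediate early genes they control are transcribed within minutes and need no new protein. Many of these genes encode transcription factors of the FOS, JUN, EGR and NR4A families, and others encode proteins that act at synapses or damp the kinases that induced them.

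The groups rest on the titles alone. The description lines matched the title in 0 of the 18 samples, and the treatment protocol names cocaine for every sample. Camk4, the gene of the study, lay between 7.52 and 7.76 (median 7.64) on the log2 scale in the 9 control arrays and between 6.85 and 7.69 (median 7.29) in the 9 mutant arrays by its brightest probe set. The ranges overlapped through mutant cocaine replicate 6, a Roman-numbered array at 7.69. Every other mutant array lay at 7.47 or lower, under the lowest control array by a narrow margin. Of 22690 probe sets, 12527 had a log2 value above 4 in at least 3 of the 9 control arrays and were tested, which covered 7503 genes named by 1 symbol.

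In the main comparison, a small group of genes was higher with cocaine, 6 of them on the list of immediate early transcription factors and 4 on that of activity-induced effectors, with rises from 1.52-fold (Tob2) to 26.2-fold (Fos). Nearly all other genes had no detectable change. Between the Arabic-numbered cocaine and the saline arrays, 15 probe sets were higher and 1 was lower at an adjusted p under 0.05 (limma, Benjamini-Hochberg over all probe sets tested). The 15 probe sets were 0.120% of those tested and stood for 13 genes, and the single lower probe set was 0.00798%. The 13 genes were Fos, Egr2, Fosb, Arc, Junb, Tiparp, Gpr3, Dusp1, Nr4a1, Midn, Bhlhe40, Gpr19 and Tob2, and the lower one was Ppp1r3c. Without adjustment, 950 probe sets had a p under 0.05, 377 of them higher and 573 lower with cocaine. These calls depend on single arrays: leaving out cocaine replicate 2 or saline replicate 3 left 0 calls (708 and 906 probe sets at an unadjusted p under 0.05), leaving out saline replicate 2 left 7, leaving out cocaine replicates 4, 5 or 6, which enter only the estimate of the spread, left 10, 10 and 9, and leaving out cocaine replicate 1 gave 68. With the spread estimated from the 6 Arabic-numbered control arrays alone, 2 probe sets passed, 1 of them among the 16. No gene of the 14 changed the sign of its difference in any of these settings.

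**Figure D1:**
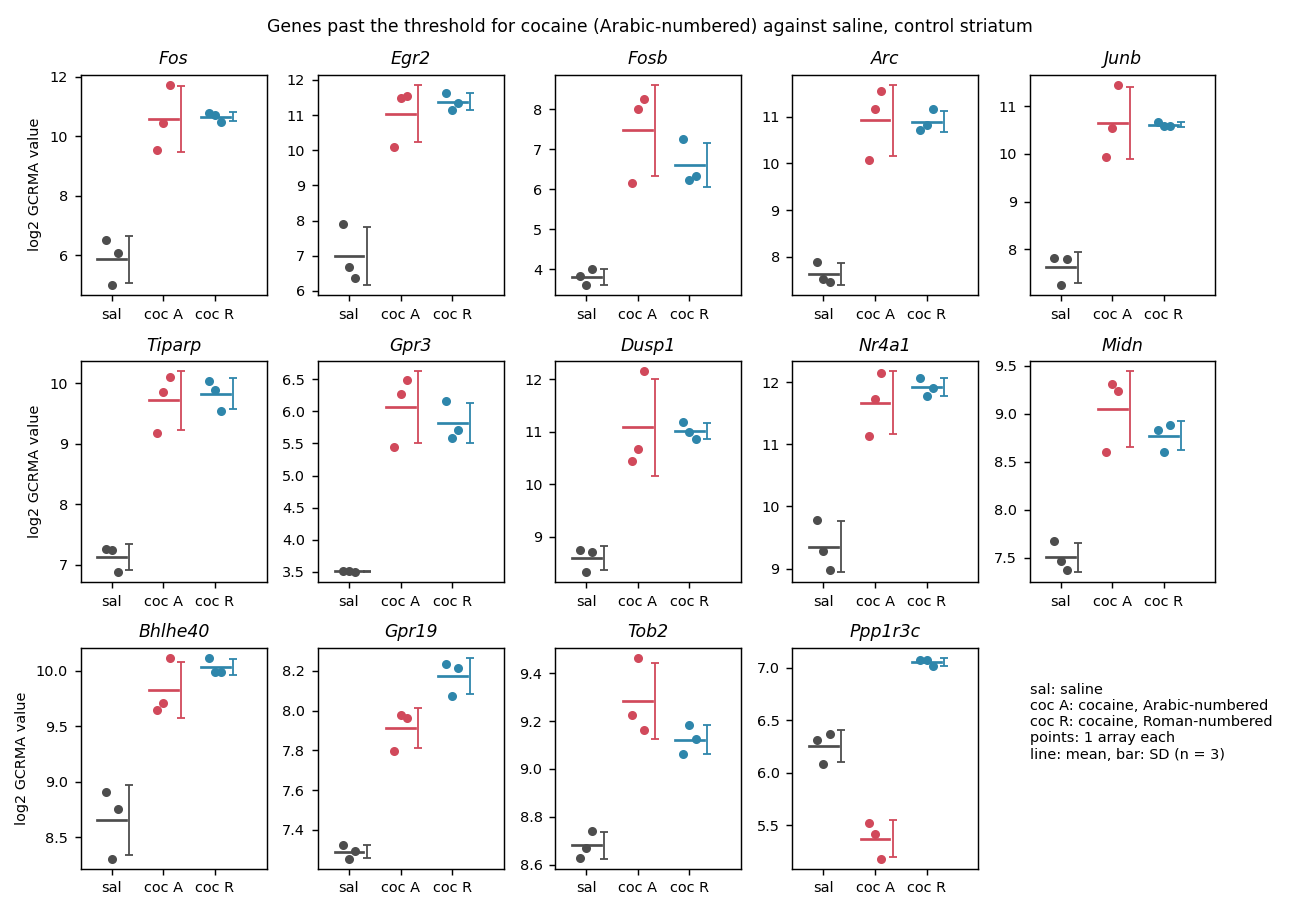
Log2 GCRMA value (vertical axis) of each of the 14 genes past the threshold in the main comparison, by group: saline (sal), Arabic-numbered cocaine (coc A) and Roman-numbered cocaine (coc R), with 1 point per array, a line at the mean and a bar of 1 SD (n = 3). In 13 genes every cocaine array lies above every saline array, and in Ppp1r3c the Arabic-numbered cocaine arrays lie below and the Roman-numbered ones above the saline arrays.

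Among the transcription factors, Fos had the largest difference. Fos encodes a subunit of AP-1, a dimer of FOS and JUN proteins. Its log2 values were 6.52, 5.00 and 6.06 in the saline arrays, 9.53, 10.44 and 11.74 in the Arabic-numbered cocaine arrays and 10.77, 10.72 and 10.49 in the Roman-numbered ones. All 6 cocaine arrays were well above all 3 saline arrays. The main difference was 4.71 ± 0.51 on the log2 scale (SE, n = 3 against 3), or 26.2-fold, with a limma adjusted p of 0.00849.

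Fosb, whose short splice form is known to build up in the striatum under repeated cocaine, read 3.81, 3.60 and 3.99 with saline and 6.15, 8.00 and 8.25 in the Arabic-numbered cocaine arrays. The Roman-numbered arrays read 7.25, 6.23 and 6.33. The saline values lay under the filter level of 4, so the gene passed the filter through its cocaine arrays, and its main difference of 3.66 ± 0.49 (SE, n = 3 against 3; limma adjusted p = 0.0325) starts from that level. Junb, a JUN partner in the AP-1 dimer, read 7.82, 7.25 and 7.79 with saline against 9.94, 10.54 and 11.45 in the Arabic-numbered arrays and 10.68, 10.58 and 10.59 in the Roman-numbered ones. Its groups were far apart, with a main difference of 3.02 ± 0.31 (SE, n = 3 against 3) and a limma adjusted p of 0.00823.

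Egr2 is a zinc finger transcription factor of the EGR family. Its values were 7.91, 6.70 and 6.36 in the saline arrays, 10.10, 11.49 and 11.55 in the Arabic-numbered cocaine arrays, and 11.63, 11.15 and 11.34 in the Roman-numbered ones. Cocaine replicate 1 was the low array of the 6, yet still stood above the highest saline array. The main difference was 4.06 ± 0.45 (SE, n = 3 against 3), or 16.6-fold (limma adjusted p = 0.00849), and a separate Egr2 probe set gave 3.79 and passed as well.

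Nr4a1, an orphan nuclear receptor also called Nur77, started from a higher level. It read 9.79, 9.29 and 8.99 with saline, 11.14, 11.72 and 12.14 in the Arabic-numbered cocaine arrays and 12.07, 11.77 and 11.91 in the Roman-numbered arrays, and again no cocaine array reached down to a saline value. The main difference was 2.31 ± 0.25 (SE, n = 3 against 3; limma adjusted p = 0.00849). Bhlhe40, a helix-loop-helix repressor that also feeds into the circadian clock, had saline values of 8.91, 8.31 and 8.75. It read 9.65, 9.71 and 10.11 in the Arabic-numbered and 10.11, 9.99 and 9.99 in the Roman-numbered cocaine arrays. Its rise of 1.17 ± 0.16 (SE, n = 3 against 3; limma adjusted p = 0.0325) was the smallest among the transcription factors that passed.

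Of 28 immediate early transcription factors with a probe set, 18 passed the filter. A gene that is low with saline, such as Fosb or Egr4, passed only through its cocaine arrays. This favours rises in the counts and the median of the list. Of the 18, 6 rose and 0 fell, and all 18 had a difference above 0. Over all 7503 genes, counted by their brightest probe set, 13 rose (0.173%) and 4293 had a difference above 0. The list median was 1.05 on the log2 scale against 0.0174 for all genes. Egr4 at 2.83 (adjusted p = 0.0846), Jun at 1.52 (0.216), Klf4 at 1.22 (0.333), Klf2 at 0.94 (0.528) and Egr1 at 0.86 (0.0633) did not pass the limma test. Egr1 was already near the top of the range with saline, at 12.52, 12.17 and 12.10, and read 12.84, 13.21 and 13.31 in the Arabic-numbered cocaine arrays. Its groups did not overlap, as in 1599 (12.8%) of the probe sets tested. In the Roman-numbered arrays against saline, 9 of the 18 rose and 0 fell, where 63 of all 7503 genes (0.84%) rose. Jun, Egr1 and Egr4 were added to the 6. Srf, which encodes a factor that binds the CArG box, and Crem, a relative of CREB, were at 0.13 and 0.04 in the main comparison.

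Arc led the effector genes, which act outside transcription. Arc protein works at synapses, where it promotes the removal of AMPA receptors. The gene read 7.89, 7.52 and 7.46 in the saline arrays, 10.07, 11.16 and 11.55 in the Arabic-numbered cocaine arrays and 10.72, 10.81 and 11.16 in the Roman-numbered ones. The difference was 3.30 ± 0.32 (SE, n = 3 against 3), or 9.87-fold, with a limma adjusted p of 0.00716, and the arrays of the groups stood more than 2 log2 units apart.

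Tiparp encodes an enzyme that attaches single ADP-ribose units to proteins. It read 7.26, 7.24 and 6.88 with saline, 9.18, 9.86 and 10.10 in the Arabic-numbered and 10.04, 9.89 and 9.55 in the Roman-numbered cocaine arrays. Its difference was 2.59 ± 0.23 (SE, n = 3 against 3; limma adjusted p = 0.00716), and its other 2 probe sets gave 2.43 and 2.60 with adjusted p-values of 0.0920 and 0.147. Gpr3 encodes a receptor that raises cyclic AMP without a ligand. It read 3.51, 3.51 and 3.50 with saline, under the filter level, and 5.44, 6.27 and 6.49 in the Arabic-numbered and 6.16, 5.58 and 5.71 in the Roman-numbered cocaine arrays. The saline values lay at the low end of the scale and hardly varied, and the difference of 2.56 ± 0.26 (SE, n = 3 against 3; limma adjusted p = 0.00716) is a difference from that level.

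Dusp1 encodes a phosphatase that switches off MAP kinases. Its values were 8.74, 8.33 and 8.71 with saline, 10.45, 10.67 and 12.15 in the Arabic-numbered cocaine arrays and 11.18, 10.99 and 10.87 in the Roman-numbered ones. Cocaine replicate 3 stood well above the rest, and the difference was 2.49 ± 0.36 (SE, n = 3 against 3; limma adjusted p = 0.0456). Midn encodes midnolin, which carries immediate early proteins to the proteasome. It read 7.67, 7.47 and 7.37 with saline, and 8.60 to 9.31 over the 6 cocaine arrays, a main difference of 1.54 ± 0.18 (SE, n = 3 against 3; limma adjusted p = 0.0113).

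The changes of Gpr19 and Tob2 were small and rested on close replicates. Gpr19, an orphan receptor, read 7.32, 7.26 and 7.29 with saline, 7.80, 7.98 and 7.96 in the Arabic-numbered and 8.24, 8.07 and 8.22 in the Roman-numbered cocaine arrays. Its main difference was 0.62 ± 0.09 (SE, n = 3 against 3; limma adjusted p = 0.0325). Tob2, of a family of proteins that slow cell growth, read 8.63, 8.67 and 8.74 with saline and 9.06 to 9.46 over the cocaine arrays. It rose by 0.60 ± 0.09 (SE, n = 3 against 3; limma adjusted p = 0.0426), and of its other probe sets one passed at 0.57 and the dimmest, at 0.61, did not.

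**Figure D2:**
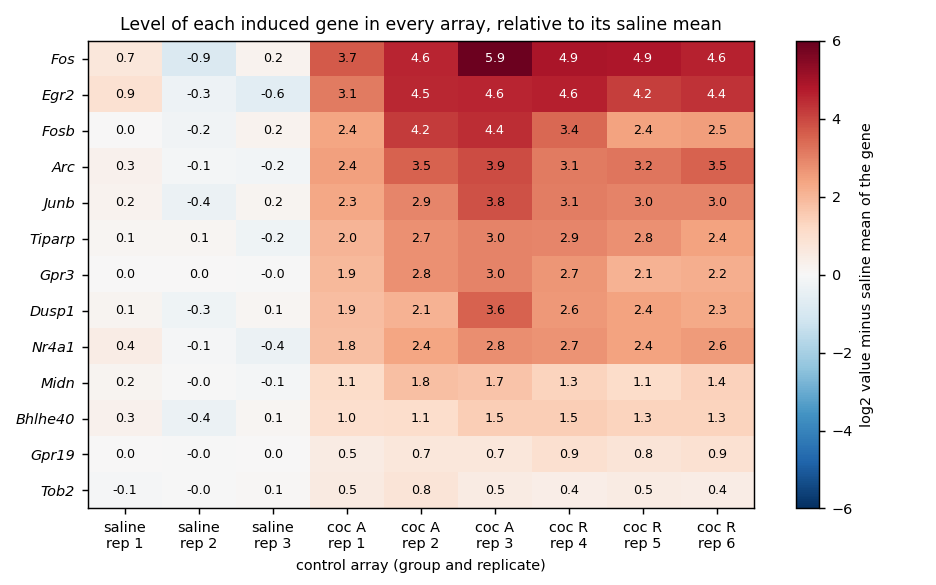
Log2 value of each of the 13 genes that rose (rows) in each of the 9 control arrays (columns), as the difference from the saline mean of the gene (colour and printed number, log2). Every cocaine column is above 0 in every row, and among the Arabic-numbered arrays (coc A) replicate 1 is the palest, with the lowest value in 12 of the 13 genes.

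The size of the rise differed between animals, and the genes moved together from array to array. Averaged over the 13 genes, the Arabic-numbered cocaine arrays stood at 9.02, 9.74 and 10.1 on the log2 scale. Replicate 1 had the lowest of the 3 values in 12 of the 13 genes and replicate 3 the highest in 10. The Roman-numbered cocaine arrays stood at 9.75, 9.50 and 9.55, closer to each other. The median SD over the 13 genes was 0.556 in the Arabic-numbered cocaine group, 0.148 in the Roman-numbered one and 0.227 with saline (n = 3 each). Saline replicate 1 was the highest saline array in 11 of the 13 genes, with a mean of 7.37 against 6.93 and 7.07.

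The Roman-numbered cocaine animals read in the same range for these genes: apart from Fosb, the means of the cocaine groups differed by at most 0.33 (Egr2). Against the same saline arrays, which both comparisons share, the 13 genes had a median difference of 2.56 in the Roman-numbered as in the Arabic-numbered arrays. Fos stood at 4.80, Egr2 at 4.39, Arc at 3.27, Junb at 2.99, Fosb at 2.80, Tiparp at 2.70, Nr4a1 at 2.56, Dusp1 at 2.42, Gpr3 at 2.31, Bhlhe40 at 1.38, Midn at 1.27, Gpr19 at 0.88 and Tob2 at 0.44. In all 13 genes the 6 cocaine arrays lay above the 3 saline arrays. The genes were chosen for a rise over these same saline arrays, so part of this separation was set by the choice. The share over all probe sets, 2.28% in either direction, is not a like comparison. All 13 passed the threshold, in a comparison in which 2.27% of probe sets were called higher, and the shared saline arrays favour this count too. The saline arrays all belong to the Arabic-numbered series, so in the Roman-numbered comparison the series and cocaine cannot be told apart. Between the Roman- and Arabic-numbered cocaine arrays, 0 of the 13 genes passed the threshold. Of all 7503 genes, by their brightest probe set, 2.28% were called higher and 5.32% lower there. At such shares a count of 0 does not set these 13 genes apart. Most of them also had an SE above the median of 0.11 over all probe sets (0.51 for Fos, 0.45 for Egr2), which makes a call less likely. Fosb was lower in the Roman-numbered arrays by a difference of -0.87 ± 0.49 (SE, n = 3 against 3; limma adjusted p = 0.274). Gpr19 was the 1 gene of the 13 whose cocaine groups did not overlap, at 0.26 ± 0.09 (SE, n = 3 against 3; limma adjusted p = 0.0772).

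The promoters of the 13 genes are shown because CREB and the serum response factor are the known routes from a receptor to these genes. RefSeq sequences (build GRCm38.p6) were at hand for 11 of the 13, and Arc and Bhlhe40 are named only. The 250 bases before each start site were searched on both strands for TGACG, the core site of the cyclic AMP response element that CREB binds, for the full element TGACGTCA, which contains the core site, for the CArG box, for AP-1 (TGANTCA), for the EGR site (GCGNGGGCG) and for TATAAA. The core site was present in 9 of the 11 genes (81.8%), namely Fos, Egr2, Fosb, Junb, Gpr3, Dusp1, Nr4a1, Midn and Gpr19, against 32.6% of 6141 tested genes and 19.8% of 27025 genes with a promoter in the table. The full element was present in 1 (Dusp1), against 3.16% of tested genes, and the CArG box in 1 (Egr2), against 1.56%. Sequence further than 250 bases before a start site was not searched, so a gene without a match here can still hold the motif. The EGR site was present in Fosb, Nr4a1 and Gpr19 (27.3% against 11.5%), TATAAA in Fos (9.1% against 7.47%) and AP-1 in 0 (5.32% of tested genes). A gene with several start sites has more windows to hold a motif: Egr2 had 5, Gpr19 had 4 and Midn had 2, and in Gpr19 and Midn only 1 window held the core site. Stretches of 4 of these promoters follow, with the motif named beside each gene in capitals and any other match left in lower case, such as the EGR site of Nr4a1, each written 5′ to 3′ on the strand of the gene. Egr2 and Dusp1 hold the CArG box and the full element, and Fos and Nr4a1, added after the search, hold several core sites. CGTCA is the core site on the other strand.
Fos, 2 core sites, chr12:85473741-85473848, plus strand: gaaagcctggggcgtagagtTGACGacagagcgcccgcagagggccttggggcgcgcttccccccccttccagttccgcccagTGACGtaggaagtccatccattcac
Nr4a1, 4 core sites, chr15:101266596-101266830, plus strand: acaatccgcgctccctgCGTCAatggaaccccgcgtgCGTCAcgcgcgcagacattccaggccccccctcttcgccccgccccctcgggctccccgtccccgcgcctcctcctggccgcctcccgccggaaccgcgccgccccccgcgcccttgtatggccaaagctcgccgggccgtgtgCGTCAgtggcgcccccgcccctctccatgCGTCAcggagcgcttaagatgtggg
Dusp1, full element, chr17:26508588-26508635, minus strand: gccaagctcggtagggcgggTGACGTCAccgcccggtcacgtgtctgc
Egr2, CArG box, chr10:67537484-67537513, plus strand: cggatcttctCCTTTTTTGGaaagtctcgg
The core sites of Fos begin 129 and 66 bases before its start site and the full element of Dusp1 143 bases before. In Nr4a1 the core sites lie in pairs, at 233 and 213 and at 69 and 40 bases before the start. A match of letters is a description of the sequence and does not show that a factor was bound in these animals.

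The mean of both cocaine groups against saline, which weights the Arabic- and Roman-numbered arrays equally, called more genes. Here 34 probe sets passed (0.271%), 33 of them higher (0.263%) and 1 lower (0.00798%), standing for 27 genes that rose and 1 that fell. The 27 held all 13 genes of the main comparison and 14 more. The 14 did not pass in the main comparison, and all 14 passed in the Roman-numbered arrays against saline. Both comparisons are parts of this mean, so passing in either is not separate evidence. Leaving out saline replicate 2 lowered the 34 calls to 13, the other saline arrays to 20 and 19, and cocaine replicates 2, 4 and 5 to 18, 22 and 18, while leaving out cocaine replicate 1 raised them to 60.

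The largest of the added rises were those of Btg2 and Egr4. Btg2, which slows the cell cycle and is a target of p53, read 4.16, 4.33 and 4.43 with saline, 6.47, 7.11 and 9.43 in the Arabic-numbered and 7.55, 8.13 and 7.29 in the Roman-numbered cocaine arrays. The mean difference was 3.36 ± 0.53 (SE; limma adjusted p = 0.0399), and the main comparison gave a similar difference with an adjusted p of 0.111 and an SD of 1.55 among the Arabic-numbered cocaine arrays. These saline values lay just above the filter level. On the other Btg2 probe set saline lay under that level, and the mean difference of 2.77 did not pass (limma adjusted p = 0.109). Egr4, of the EGR family, rose by 2.85 ± 0.40 (SE; limma adjusted p = 0.0222) from saline values of 3.72, 3.63 and 3.18, which lay under the filter level.

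Genes of the growth arrest and DNA damage family followed. Gadd45b rose by 2.02 on the probe set of highest level and by 2.03 on its other one, and Gadd45g rose by 1.09. Sertad1, a cofactor of E2F transcription, rose by 1.54, the Hsp40 chaperone gene Dnajb5 by 1.20, the zinc finger gene Zfp948 by 1.16 and the mitochondrial carrier gene Slc25a25 by 1.05. Chmp1b, of the ESCRT-III membrane machinery, rose by 0.91 on its brighter probe set, Egr1 by 0.87, the imprinted gene Mest by 0.85 and the survival gene Mcl1 by 0.75. Sgk1, a kinase gene that responds to glucocorticoids, and Klf9, a zinc finger factor with the same response, rose by 0.49 and 0.28. The called probe sets of Mcl1, Zfp948 and Dnajb5 were also higher in the Roman- than in the Arabic-numbered cocaine arrays, so the mean rests more on the Roman-numbered group there. The called probe set of Dnajb5 was the dimmest of 3, and its 2 brighter ones differed by -0.06 and 0.02 between the cocaine groups and did not pass against saline (limma adjusted p = 0.125 and 0.0742). Mt3, the brain metallothionein, was the gene that fell, by 0.41 ± 0.05 (SE; limma adjusted p = 0.0187), and it was lower in the Roman- than in the Arabic-numbered arrays by a difference of -0.31.

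Lists of genes by function were counted in the same fit. Among 21 measured activity-induced effectors, of 30 with a probe set, 4 rose in the main comparison and 0 fell, with a list median of 0.53. The 4 were Arc, Tiparp, Gpr3 and Dusp1, of which Gpr3 passed the filter only through its cocaine arrays. In the Roman-numbered arrays against saline 10 rose and 0 fell, with a median of 0.39, where 63 of all genes (0.84%) rose. Homer1, whose short form is an activity-induced scaffold protein, read -0.54 on its brightest probe set (adjusted p = 0.285), and Per1 read 1.07 (0.115).

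Dusp1 was the only 1 of 7 measured genes of MAP kinase feedback past the threshold in the main comparison, and 3 of the 7 rose in the Roman-numbered arrays against saline. Dusp6, which acts on ERK, read 1.33 (adjusted p = 0.245) there and 1.29 in the Roman-numbered arrays (0.0606). Of 11 growth arrest genes only Tob2 passed, with a list median of 0.60, and in the Roman-numbered arrays 4 passed, namely Btg2, Gadd45b, Gadd45g and Tob2. Of 17 clock genes only Bhlhe40 passed, and the list median was 0.08. Of 15 glucocorticoid-responsive genes only Dusp1 passed in the main comparison, and 3 rose in the Roman-numbered arrays against saline. The median was 0.39 in the Arabic-numbered against 0.06 in the Roman-numbered arrays. Over all 7503 genes these medians were 0.0174 and -0.0487, and 0.173% and 0.84% of the genes rose.

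The signalling and structural genes of the tissue had 0 members past the threshold in the main comparison. This held for the 13 genes of dopamine and cyclic AMP signalling, whose differences ran from -0.11 to 0.12 with a median of 0.03, or -0.08 when all probe sets of a gene were averaged. It held as well for the 11 genes of the calmodulin kinase and CREB pathway, with a median of 0.07, where Camk2a had the lowest difference, -1.002 (adjusted p = 0.549), on a dim probe set. The 8 neuropeptide genes had a median of 0.04. Penk, the enkephalin precursor, read 13.91, 13.90 and 13.89 with saline and 13.88, 13.94 and 14.02 in the Arabic-numbered cocaine arrays. Tac1, the substance P precursor, read 13.29, 13.26 and 13.39 against 13.30, 13.33 and 13.52. Both peptide genes overlapped between groups and differed by 0.05 and 0.07.

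No glutamate receptor (6 genes, median 0.04), GABA gene (8, -0.005), postsynaptic scaffold gene (7, 0.04), synaptic vesicle gene (16, 0.02), respiratory chain gene (70, 0.01) or ribosomal protein gene (41, -0.03) passed in the main comparison. The sign of the ribosomal median turned, to 0.009, when each array was centred on its median. Neither did any of 16 heat shock genes (median 0.10) or the measured 2 of the NF-kB list, Nfkbia at 0.61 (adjusted p = 0.205) and Ier3 at 0.19. For comparison, 0.173% of all 7503 genes rose in the main comparison, a share at which even the list of 70 genes would hold fewer than 1 called gene.

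**Figure D3:**
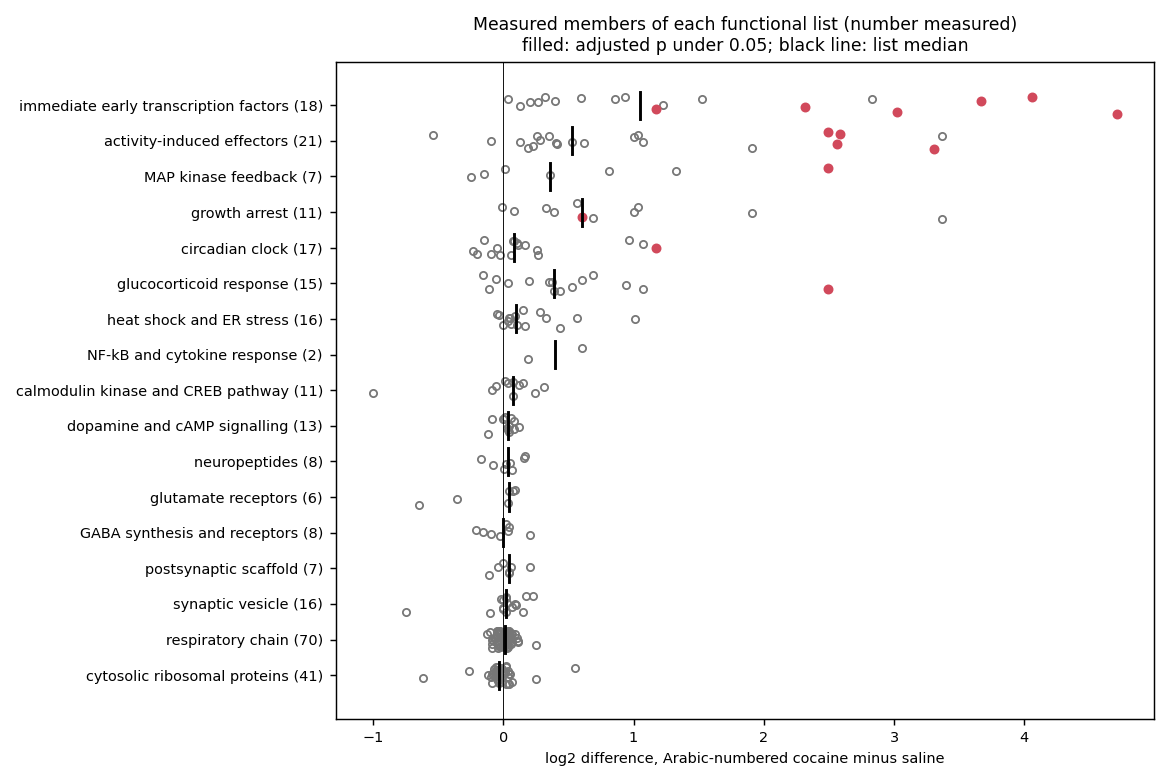
Difference of each measured gene (1 symbol each, log2, Arabic-numbered cocaine minus saline, horizontal axis) in 17 functional lists, with the number measured in brackets, filled points for an adjusted p under 0.05 and a black bar at the list median. The filled points lie in the 6 uppermost lists, some of which share genes, and the medians of the lower lists lie within 0.1 of 0 except that of NF-kB and cytokine response, which has 2 genes.

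No marker of a cell type of the dissected tissue was called in the main comparison. Of the measured markers, 0 passed among 7 for medium spiny neurons, 4 for D1 and 2 for D2 spiny neurons, 6 for striatal interneurons, 9 for oligodendrocytes, 14 for astrocytes, 14 for microglia, 9 for endothelium and 6 for mural cells. Their medians lay between -0.045 (astrocytes) and 0.17 (endothelium). The mean level of the medium spiny neuron markers was 11.8 to 12.0 in the saline arrays and 11.8 to 12.0 in the Arabic-numbered cocaine arrays, and the defining gene Ppp1r1b differed by 0.05. Markers of tissue next to the striatum were mostly not measured: 2 of 12 cortical markers, 4 of 8 for thalamus and septum and 1 of 8 for choroid plexus and ependyma passed the filter, with 0 past the threshold, and 0 of 5 for red blood cells did so.

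In the Roman-numbered arrays against saline, 1 of 2 measured D2 markers, 1 of 4 D1 markers and 1 of 2 cortical markers were called lower, as were 86 of all 7503 genes (1.15%). Drd2, the D2 dopamine receptor, read 11.55, 11.75 and 11.58 with saline, 11.54, 11.72 and 11.79 in the Arabic-numbered and 11.26, 11.12 and 11.35 in the Roman-numbered cocaine arrays. The saline and Arabic-numbered values overlapped and the Roman-numbered ones lay below both, by a difference of -0.38 from saline (limma adjusted p = 0.0452). Sfxn1, a marker of D1 neurons, and Nrgn, a marker of cortical neurons that spiny neurons also express, fell by 0.51 (0.0318) and 0.50 (0.0389) in the same comparison. The 4 D1 markers ran from -0.51 to 0.07 with a median of -0.18, and 1 of them was above 0. Of the other members of the 3 lists, Penk (D2), Tac1 (D1) and Mef2c (cortical) were at -0.07, -0.02 and -0.09.

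The Roman- and Arabic-numbered cocaine arrays, of the same genotype and treatment by their titles, differed from each other in more probe sets than either differed from saline. Between them 951 probe sets were higher with Roman numbers (7.59%) and 604 lower (4.82%), and with each array centred on its median 850 were higher and 1426 lower. Against saline the Roman-numbered arrays had 428 calls (3.42%), 284 of them higher (2.27%) and 144 lower (1.15%). The 1555 calls between the series fell to 694, 726, 981 and 1014 without cocaine replicates 2, 3, 4 and 5. The 428 calls against saline fell to 283, 96 and 77 without cocaine replicates 3, 4 and 5, and to 71, 44 and 100 without saline replicates 1, 2 and 3.

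**Figure D4:**
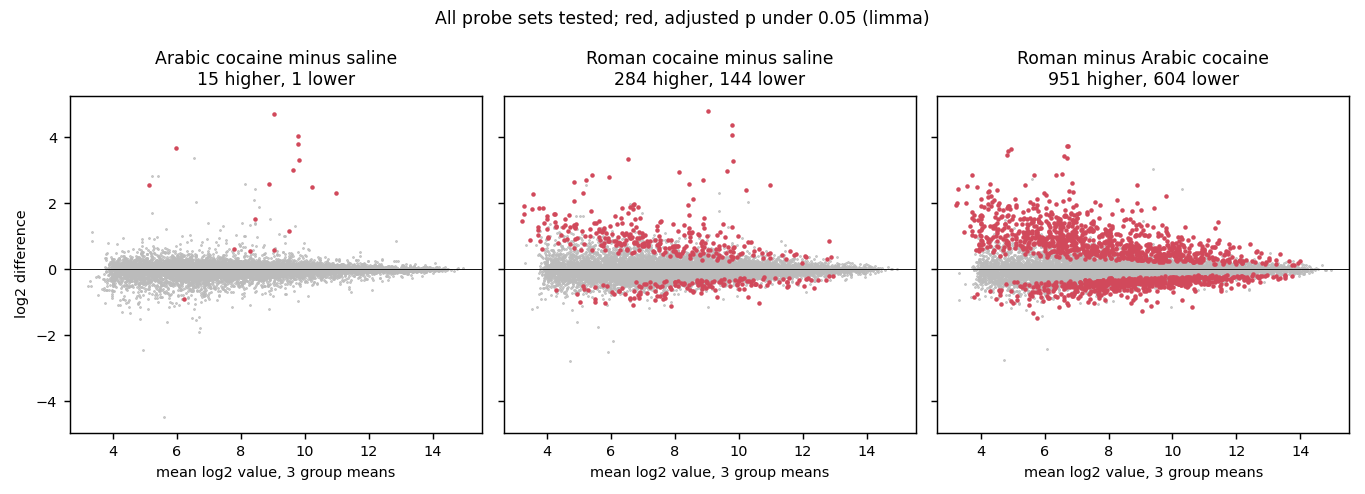
Difference (vertical axis, log2) against the mean of the 3 group means (horizontal axis, log2) for the 12527 probe sets tested, for Arabic-numbered cocaine minus saline, Roman-numbered cocaine minus saline and Roman- minus Arabic-numbered cocaine, with red points for an adjusted p under 0.05. The left panel holds 15 higher and 1 lower red points, the middle one 284 and 144 and the right one 951 and 604.

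The 10 genes of largest change between the cocaine series were not those of the cocaine response. The 5 largest rises from Arabic- to Roman-numbered arrays were those of Rnf14 (3.75), the calcium-regulated Ras activator Rasgrp1 (3.73), the kinesin motor gene Kif5c (3.66), the long noncoding RNA Norad (3.60) and the mitochondrial fission gene Dnm1l (3.48). Rnf14, a ubiquitin ligase gene, read 5.37, 4.11 and 5.18 in the Arabic-numbered and 9.26, 8.40 and 8.25 in the Roman-numbered arrays on the probe set called, with saline between them at 6.60, 6.29 and 7.09. On its brightest probe set it read 11.8 to 12.0 in all 9 arrays, a difference of 0.04. Kif5c showed the same split, at 3.66 on the dim and -0.17 on the bright probe set, while all 3 probe sets of Rasgrp1 were higher. The largest falls were those of Alg9 (-1.47), Vat1 (-1.32), the small heat shock gene Cryab (-1.25), Tmem250-ps (-1.11) and Thoc1 (-1.08). Against saline the largest falls in the Roman-numbered arrays were those of Tenm4 (-1.11), Sorcs3 (-1.07), Cryab (-1.03), Pum3 (-1.02) and Thoc1 (-0.98).

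Most genes called higher between the cocaine series that had several probe sets also had some that were not called. Of 784 genes called higher in the Roman- than in the Arabic-numbered arrays, 682 had further tested probe sets, and in 13 of these all probe sets were called. The called probe sets had a median difference of 0.77 at a median level of 7.33. The 1071 probe sets of the same genes that were not called higher had a median of -0.02 at a level of 9.34. Leaving out the called ones favours a small difference among these, so part of that gap was set by the choice. Of 515 genes called lower, 275 had further probe sets, and in 16 of these all were called. There the called probe sets, with a median difference of -0.41, were the brighter ones, at a median level of 8.82. Those not called lower stood at 8.09, with a median difference of -0.08 that the same choice affects. Of the 13 genes that rose in the main comparison, 3 had several tested probe sets. Only 3 probe sets of these were not called, those of Tiparp and Tob2, with a median difference of 2.43, which is that of a Tiparp probe set.

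Ppp1r3c, the only gene called lower in the main comparison, also differed between its probe sets. It encodes a subunit that brings protein phosphatase 1 to glycogen. Its called probe set read 6.32, 6.09 and 6.37 with saline, 5.52, 5.42 and 5.18 in the Arabic-numbered and 7.07, 7.08 and 7.01 in the Roman-numbered cocaine arrays. It was thus -0.88 ± 0.12 from saline in one series and 0.80 ± 0.12 in the other (SE, n = 3 against 3; limma adjusted p = 0.0325 and 0.0156). Its brighter probe set lay at 9.96 with saline and differed by -0.01 and -0.09.

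RNA length measures differed in mean between the 3 groups, with saline between the cocaine series. The difference between the 3′ and the 5′ probe sets of actin, which grows as RNA or cDNA becomes shorter, was 2.08 ± 0.20 (SD, n = 3) with saline, 2.43 ± 0.19 in the Arabic-numbered and 1.73 ± 0.17 in the Roman-numbered cocaine arrays. That of GAPDH was -0.10, 0.07 and -0.30. The exact two-sided permutation p was 0.1 between the cocaine series for both, the smallest that 3 against 3 allows, and 0.2 after adjustment over 12 such comparisons. Saline stood about as far from the Arabic-numbered cocaine arrays of its own series in actin (0.347) as from the Roman-numbered ones (-0.349). The mean of both cocaine groups was close to saline, with differences of -0.0007 for actin and -0.0105 for GAPDH. With the actin difference as a covariate, limma called 0 probe sets in the main comparison (920 at an unadjusted p under 0.05) and 0 between the cocaine series, 21 for Roman-numbered cocaine against saline, and 33 for the mean of both cocaine groups, of which 31 were among the 34 called without it. The covariate itself differed by 0.35 between the groups of the main comparison and so shares part of that contrast. It shares more of the contrast between the cocaine series, where it differed by -0.696 and its values did not overlap. A loss of calls in these comparisons was thus partly built in. For the mean of both cocaine groups the covariate hardly differed from saline, so it could hardly move those estimates, and the calls kept there are no separate evidence. The part of RNA length in each gene's result was not tested.

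**Figure D5:**
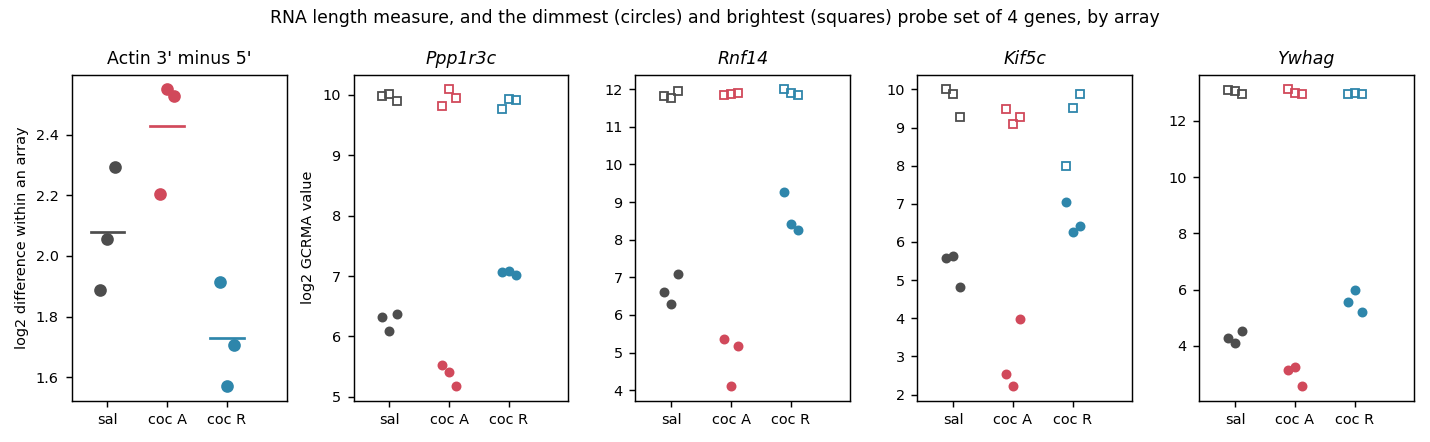
Left panel, actin 3′ minus 5′ difference (log2) in each array by group, with a line at the mean; other panels, log2 value in each array of the dimmest (circles) and brightest (squares) tested probe set of Ppp1r3c, Rnf14, Kif5c and Ywhag. The circles are lowest in the Arabic-numbered and highest in the Roman-numbered cocaine arrays with saline between, and for Ppp1r3c, Rnf14 and Ywhag the squares of the 3 groups lie together.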

How the data were processed

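Mouse Affymetrix arrays of 18 striatum samples were used as the deposited log2 expression values. The authors computed them by GCRMA under R 2.4.1, per the submitters' processing notes. GCRMA corrects background by probe sequence, which sets low values. Of 22690 probe sets, 20380 carried 1 gene symbol in GEO's platform annotation, 691 several and 1555 none, and 64 control probe sets were left out. No column pair was identical. Groups came from titles, which call the samples biological replicates. The 9 control arrays were fitted as 3 group means with limma 3.58.1 (R 4.3.3; moderated variances with trend, two-sided, Benjamini-Hochberg over 12527 probe sets with log2 above 4 in at least 3 arrays, adjusted p under 0.05). The spread had 6 residual degrees of freedom, and the number of arrays limits the precision. In lists a gene stood as its brightest probe set. The code was tested on simulated data. Named were all genes past the threshold in the main comparison, the 5 of largest change each way in both Roman-numbered comparisons, up to 4 called (or the 2 brightest) genes of each list, and Camk4. Genes outside that rule (the other members of lists, the added genes of the mean of both cocaine groups, Ywhag and Camk2a) were named after their values were seen. The comparison and the lists were chosen with earlier results of these data known. Alternatives covered the arrays fitted, filter, scaling, variance model, threshold, array weights, an actin covariate and each array left out. Cocaine and saline arrays of the same replicate number came from animals of neighbouring numbers (12 and 10, 2 and 4, 7 and 8). Their deviations from the group means correlated at 0.219, 0.165 and 0.0715, and those of the other pairs at -0.322 to 0.187. The labels state no pairing, and the main fit used none.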

Additional observations from a re-analysis of the deposited data

Results flagged for a closer look

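The 6 control cocaine arrays were searched for 1 value far from the others (Dixon's criterion) in 75 measures, the named probe sets and the actin and GAPDH differences. Such a value was found in 5 of the 75, and chance alone flags about 1 set in 20. Egr2 was at 10.095 in cocaine replicate 1, below the next lowest array at 11.154, and this is the array that was also lowest among the Arabic-numbered ones in 12 of the 13 genes that rose. Aldh1a1 was at 8.23 in replicate 3, with the next array at 8.941. Camkk2 was at 10.668 in replicate 4, with the next at 11.162. Csf1r, a microglial receptor, was at 10.921 in replicate 2, above 10.72, and Mef2c, a neuronal transcription factor, was at 10.816 in the same array, above 10.623.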

How the results depend on the processing

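The 13 genes that rose and Ppp1r3c kept the sign of their difference in all 308 combinations of gene and alternative (lowest to highest difference 4.13 to 5.23 for Fos and 2.96 to 3.73 for Arc), while their calls depended on the fit. The main comparison, with 16 probe sets, had 2 with the 6 Arabic-numbered control arrays alone, 43 with the 12 Arabic-numbered arrays of both genotypes, 10 without a filter, 41 with array weights, 25 at an adjusted p under 0.1, 0 with an ordinary linear model (812 at an unadjusted p under 0.05) and 0 with the actin covariate. With the replicate number as a block it had 1, none of the 16, but the labels do not say that these numbers pair the samples. Leaving out single arrays gave 0 to 68. For Roman-numbered cocaine against saline, the 428 became 138 with all 18 arrays as 6 means, 104 with a series term, 153 without a filter, 900 with weights, 9 with the ordinary model, 1140 at 0.1, 123 with a size of at least 1, 21 with the actin covariate and 44 to 627 with an array left out. Between the cocaine series the 1555 became 562, 780, 794 (ordinary model), 2462 (at 0.1), 340 (size) and 0 (actin), with 694 to 2241 on leaving out an array. For the mean of both cocaine groups the 34 became 16 without a filter, 55 with weights, 18 without a variance trend and 0 with the ordinary model (798 at an unadjusted p under 0.05), with 13 to 60 on leaving out an array. List medians that moved were dopamine signalling (-0.077 over all probe sets) and, on centring, the respiratory chain (0.051) and ribosomal proteins (0.009). Measured from 3′ to the middle probe set, the actin differences were 0.1038, -0.1538 and -0.2575 and those of GAPDH 0.0533, -0.0655 and -0.1189, against 0.3473, -0.3487, -0.696, 0.1763, -0.1973 and -0.3737 from 3′ to 5′. Leaving out an array moved the actin differences within 0.2519 to 0.4588, -0.4442 to -0.2413 and -0.8075 to -0.6164, and those of GAPDH within 0.149 to 0.2235, -0.2123 to -0.1675 and -0.4209 to -0.3464. The causes were not tested.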

Other observations

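A few genes stood at a high level in some control animals and a low one in others of the same group. The 5 genes of largest spread within groups were taken, where the median SD within groups over probe sets was 0.134 on the log2 scale. Cap1, which encodes an actin-binding protein, read 12.10, 5.06 and 12.03 in saline replicates 1 to 3, 12.08, 12.22 and 3.74 in the Arabic-numbered and 12.23, 12.07 and 11.02 in the Roman-numbered cocaine arrays. Its second probe set read 4.35 and 2.89 in the same 2 low arrays and 10.47 or more in the other 7. Cdhr1, a cadherin-related gene, read 7.92, 4.27 and 7.99 with saline, 8.16, 4.52 and 8.21 in the Arabic-numbered and 4.69, 4.57 and 4.40 in the Roman-numbered cocaine arrays.

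Serpina3n, a protease inhibitor gene of reactive astrocytes, was split over the same animals as Cdhr1. It read 6.75, 3.16 and 7.09 with saline, 6.82, 3.36 and 6.74 in the Arabic-numbered and 2.86, 2.74 and 3.06 in the Roman-numbered cocaine arrays, so all 3 Roman-numbered animals were among the low ones. Paip1 read 3.48 to 3.52 in 3 cocaine arrays and 6.81 to 7.28 in the other 6 arrays on one probe set, and 8.42 to 9.05 in all 9 on its other. Acvrl1, a receptor gene of blood vessels, read 2.26 to 3.32 in 3 arrays and 5.44 to 7.24 in the other 6. No gene of these passed the threshold in the main comparison.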
